A study of Rattus norvegicus with 50 samples.

Results

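The genes described here are the transcription factor Nfe2l2, which encodes NRF2, its inhibitor Keap1, and 8 of the NRF2 target genes in the rat liver: Nqo1, Gclc, Gclm, Slc7a11, Gsr, Txnrd1, Srxn1 and Osgin1. The 10 genes were chosen by symbol, all 10 had a probe on the array, and they are 10 of the 14506 genes with a named probe. Each had 1 probe. Liver RNA of 50 male Sprague Dawley rats of about 3 months was measured on Affymetrix arrays, 1 array per animal, in 10 groups of 5 animals. In 9 groups the brain had been injured by controlled cortical impact (CCI), and the liver was taken 24 h, 72 h or 7 days later. Injured rats had been given erythropoietin (EPO, 2500 IU/kg), which stimulates red cell formation, or anakinra (100 mg/kg), which blocks the interleukin-1 receptor, or saline vehicle. The remaining group was an intact sham group, with no drug, no vehicle and no stated time, and it is shared by every comparison with sham. In those comparisons the effects of injury, saline, handling and time of collection cannot be told apart. The sources used here do not give the number or timing of the doses, and nothing in the labels says whether animals of a group shared a cage or a day of surgery. Each time had its own animals, so no animal was followed. A day or batch shared within a time, or the number of doses, cannot be told apart from time.

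NRF2 is a transcription factor that is held in the cytoplasm and marked for degradation by KEAP1. Electrophiles and oxidants modify cysteines of KEAP1, NRF2 then accumulates, enters the nucleus and pairs with a small MAF protein on antioxidant response elements. In the liver its targets make and recycle glutathione, feed the thioredoxin system and reduce quinones, and Nqo1 is the target most often used as a readout. NRF2 is controlled mainly through its stability, so the level of its transcript is not a measure of its activity.

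RefSeq promoter windows of GRCr8, reaching from 250 bases before to 50 bases after a listed start, were found for 9 of the 10 genes, with 2 windows for Txnrd1. They were searched on both strands for the core of the antioxidant response element, TGACNNNGC, and for a variant that overlaps the AP-1 motif, TGANTCAGC. A match stood in 4 of the 10 windows, those of Nfe2l2, Gclm, Srxn1 and the second window of Txnrd1, against 12.7% of all 33469 windows with either motif. The first motif alone was in 12.1% of all windows and the second in 1.11%. The windows of Nqo1 and Gclm are shown because these are the members whose levels differed most over time, and that of Srxn1 because it was the member with the AP-1-like variant. Capitals mark the match. In Gclm it reads TGACTAAGC on the strand opposite to the gene, 172 bases before the start, and in Srxn1 TGAGTCAGC on the strand of the gene, 5 bases before the start. The Nqo1 window (chr19:52220218-52220517, minus strand) held neither string, which says only that these letters are not in this window. The Gclm window is chr2:213031885-213032184 and the Srxn1 window chr3:161064562-161064861, both on the plus strand.
Nqo1: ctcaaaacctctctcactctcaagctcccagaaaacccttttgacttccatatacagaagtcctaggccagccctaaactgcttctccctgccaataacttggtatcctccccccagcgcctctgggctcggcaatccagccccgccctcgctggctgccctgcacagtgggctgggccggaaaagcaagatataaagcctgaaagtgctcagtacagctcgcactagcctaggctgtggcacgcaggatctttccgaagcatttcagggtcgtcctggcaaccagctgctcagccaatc
Gclm: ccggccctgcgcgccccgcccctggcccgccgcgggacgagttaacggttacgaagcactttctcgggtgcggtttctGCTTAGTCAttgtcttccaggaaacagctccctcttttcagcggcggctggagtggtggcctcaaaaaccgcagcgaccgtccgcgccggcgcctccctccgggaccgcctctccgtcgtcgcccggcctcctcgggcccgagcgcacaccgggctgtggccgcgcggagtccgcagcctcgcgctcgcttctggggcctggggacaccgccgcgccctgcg
Srxn1: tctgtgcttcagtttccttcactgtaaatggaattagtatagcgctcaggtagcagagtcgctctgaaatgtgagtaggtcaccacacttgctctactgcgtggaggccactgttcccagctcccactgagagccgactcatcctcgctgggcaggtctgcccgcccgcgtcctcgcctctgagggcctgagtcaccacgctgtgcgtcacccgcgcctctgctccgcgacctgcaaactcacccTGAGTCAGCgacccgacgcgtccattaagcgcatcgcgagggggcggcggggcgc

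All values are log2 values from robust multi-array averaging (RMA), so 1 unit is a doubling of array signal. Where 3 group means of a treatment are given, they run from 24 h through 72 h to 7 days. Levels of different genes come from different probes and are not set against each other. Medians of the arrays ranged from 6.66 to 6.89. Probe values spread with a standard deviation of 1.99 to 2.16 per array, and the 5 arrays with the smallest spread (2.04 or less) were vehicle replicate 3 at 24 h, vehicle replicates 2 and 5 at 72 h, vehicle replicate 3 at 7 days and EPO replicate 3 at 7 days. They are called narrow arrays below. All 9 hepatocyte markers, such as Alb and Ttr, were among the brightest genes. Differences were tested with limma, and a gene was called at an adjusted p (Benjamini-Hochberg over 14506 genes) under 0.05. In whole tissue, fewer cells of a type and less RNA per cell cannot be told apart.

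**Figure D1:**
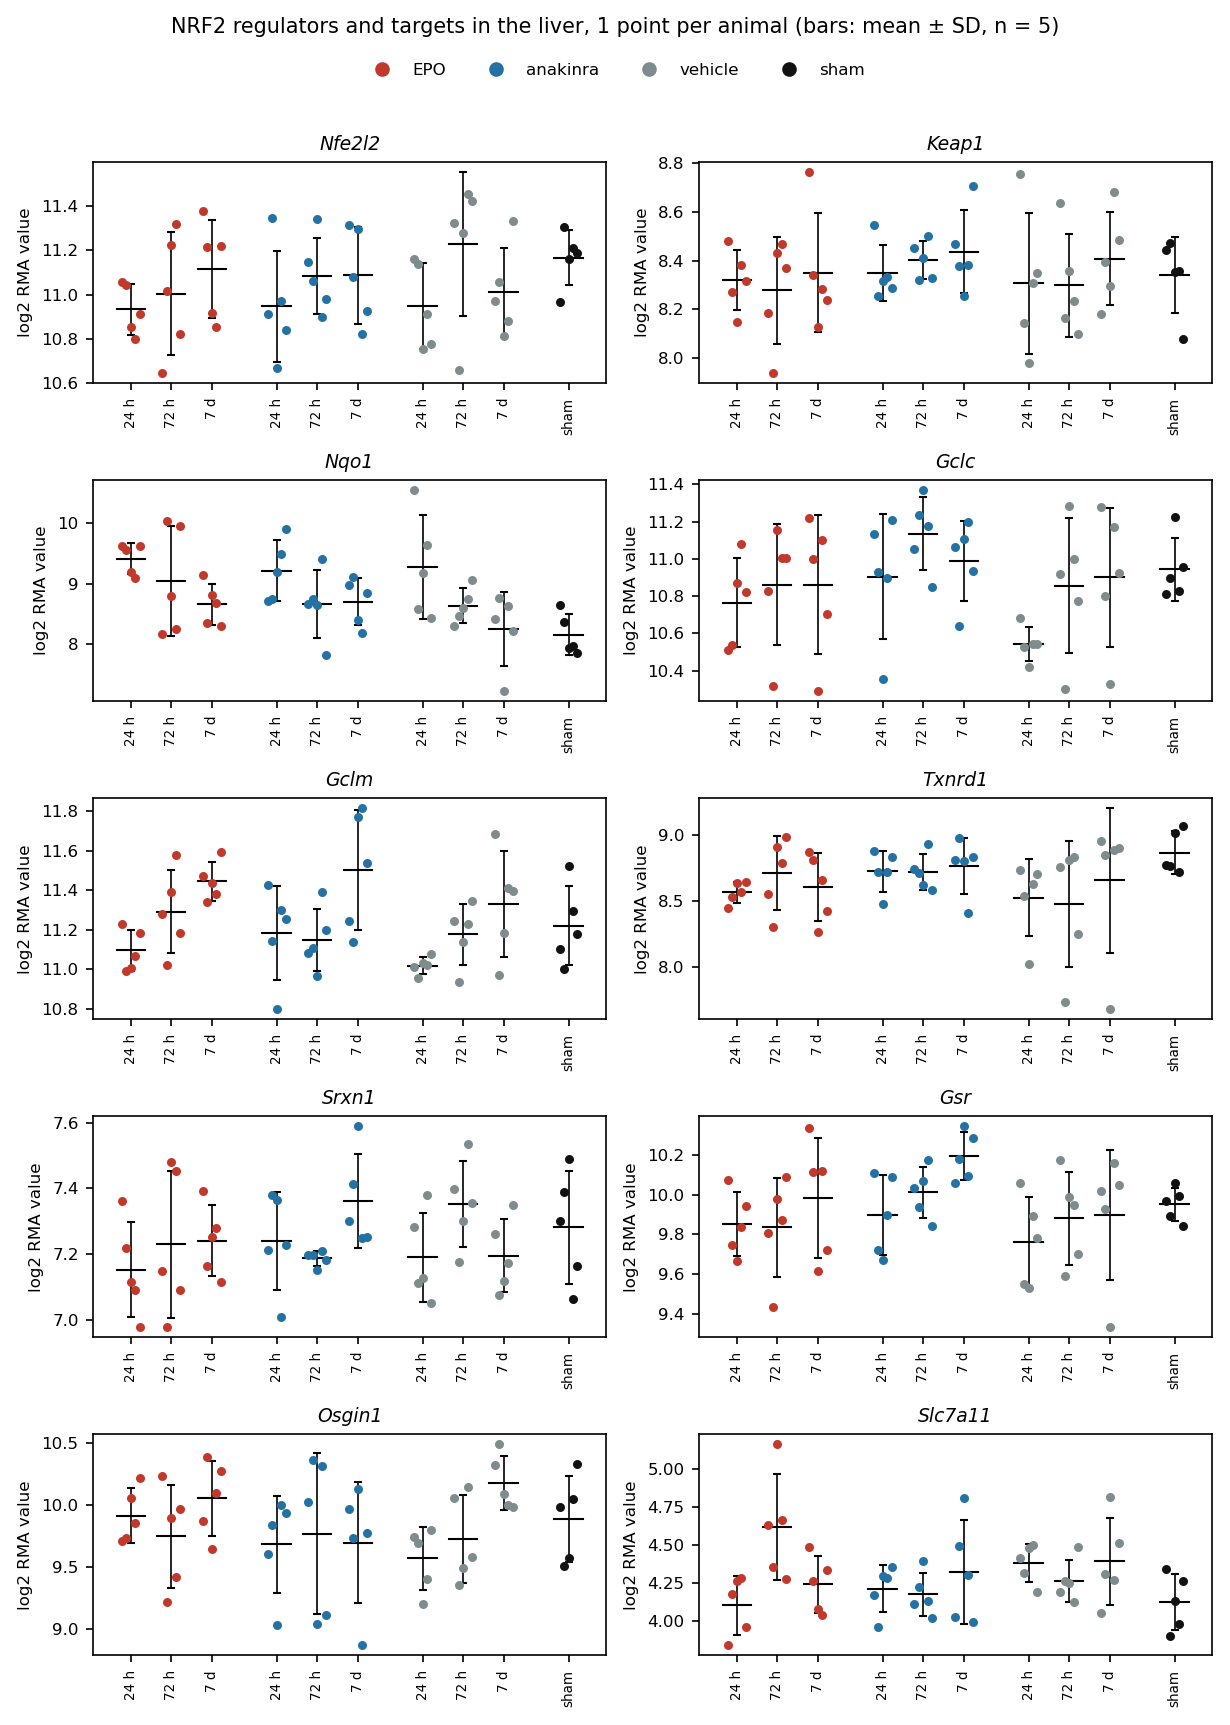
The log2 RMA value of each of the 10 genes (vertical axis, 1 panel per gene with its own range) in every animal, by treatment and time after injury (horizontal axis: EPO, anakinra and vehicle groups, then sham). Points are animals, lines and bars are mean ± SD (n = 5). For Nqo1 the means of the 24 h groups (9.41, 9.21 and 9.27) stand above the sham mean (8.16), and most other panels show groups that overlap.

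None of the 10 genes passed the test between a drug and vehicle, or between vehicle and sham, at any time. Over the 9 main comparisons (EPO minus vehicle, anakinra minus vehicle and vehicle minus sham, each at 24 h, 72 h and 7 days), 0 of the 90 tests passed the limma threshold, and 8 of the 90 had an unadjusted p under 0.05. The share of all genes at that unadjusted p ran from 4.25% to 20% over the 9 comparisons, so the members' count was near the background. EPO against vehicle livers gave calls for 0.0276% of all genes at 24 h, 2.72% at 72 h and 0.365% at 7 days. Anakinra against vehicle livers gave 0 at 24 h and at 72 h and 0.0138% at 7 days, and vehicle against sham livers 0.827% at 24 h and 0 at 72 h and at 7 days. In the comparisons called for few genes or none, the members' count of 0 carries little information. In the 72 h comparison of EPO with vehicle livers, 395 genes were called and no member was among them; that count was 1520 without EPO replicate 1, 785 without vehicle replicate 4, 246 without EPO replicate 2 and 205 without vehicle replicate 2. The 95% intervals for the drugs were widest for Nqo1 and reached 1.11 for anakinra minus vehicle at 7 days, so larger rises lie outside them.

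**Figure D2:**
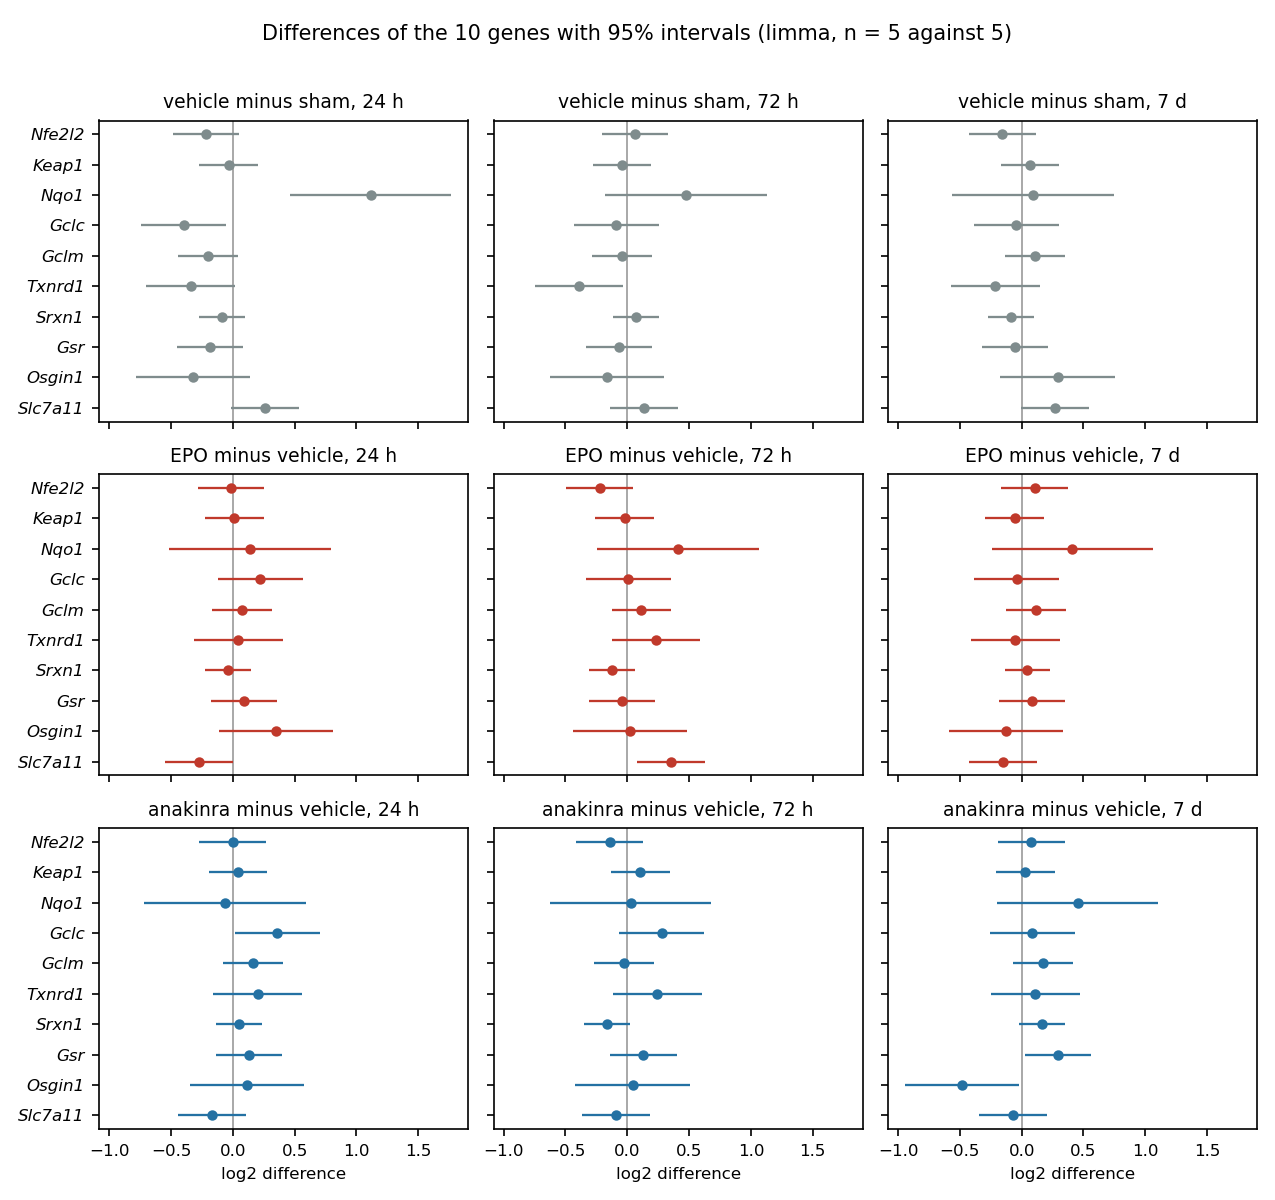
Log2 differences (horizontal axis) of the 10 genes (vertical axis) in the 9 main comparisons, with points for the estimate and bars for the limma 95% interval (n = 5 against 5). The interval of Nqo1 lies above 0 for vehicle minus sham at 24 h (0.46 to 1.77), and most other intervals include 0.

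Neither regulator passed the test in any comparison. Nfe2l2 (chr3:81001529-81031165 in GRCr8) encodes NRF2 itself, and Keap1 (chr8:28044555-28054042) its inhibitor. Nfe2l2 measured 10.65, 11.01, 11.22, 11.32 and 10.82 in EPO livers at 72 h, against 11.32, 10.66, 11.28, 11.45 and 11.42 in vehicle livers, and the groups overlapped. That was its largest main difference, -0.22 (SE 0.13, limma adjusted p = 0.340). Over all 50 arrays Nfe2l2 ranged from 10.65 to 11.45. Group means of Nfe2l2 were 10.93, 11.004 and 11.12 in EPO livers, 10.95, 11.08 and 11.09 in anakinra livers and 10.95, 11.23 and 11.01 in vehicle livers, with 11.17 in sham livers (n = 5 each, SD 0.114 to 0.325). Keap1 ranged from 7.94 to 8.76, and 7.79% of its variance lay between groups, a share smaller than that of all but 2.24% of genes. Group means of Keap1 were 8.32, 8.28 and 8.35 in EPO livers, 8.35, 8.40 and 8.44 in anakinra livers and 8.31, 8.30 and 8.41 in vehicle livers, with 8.34 in sham livers (n = 5 each, SD 0.0781 to 0.291). Its largest main difference was 0.10, for anakinra minus vehicle livers at 72 h (SE 0.12, limma adjusted p = 0.683). Without the 5 narrow arrays that difference was -0.0072. Of 11 other regulators, among them Cul3, the scaffold of the ligase that marks NRF2, the competitor Bach1 and the small MAF genes, 0 were called in each of the 9 main comparisons. At an unadjusted p under 0.05 there were 0 to 2 of the 11 in each.

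Nqo1, the quinone reductase (chr19:52205374-52220267), was the member with the largest differences. At 24 h it measured 9.62, 9.55, 9.19, 9.09 and 9.62 in EPO livers and 8.72, 8.75, 9.19, 9.49 and 9.90 in anakinra livers. Vehicle livers at 24 h measured 10.54, 8.59, 9.18, 9.63 and 8.43, against 8.65, 8.36, 7.95, 7.97 and 7.86 in sham livers. Every EPO and every anakinra animal at 24 h lay above every sham animal, and 3 of the 5 vehicle animals did. Non-overlap in the higher direction was found for 1.66% of all genes in the EPO and for 1.23% in the anakinra comparison with sham. Group means of Nqo1 were 9.41, 9.04 and 8.66 in EPO livers, 9.21, 8.66 and 8.70 in anakinra livers and 9.27, 8.63 and 8.25 in vehicle livers, with 8.16 in sham livers (n = 5 each, SD 0.253 to 0.899). The means of the 3 groups at 24 h were the highest of the 10, and the sham mean was the lowest.

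The difference from sham at 24 h was 1.25 for EPO (SE 0.32, 2.39-fold, limma adjusted p = 0.0632), 1.05 for anakinra (SE 0.32, 2.07-fold, adjusted p = 0.233) and 1.12 for vehicle (SE 0.32, 2.17-fold, adjusted p = 0.0875). None of these passed, and the 3 share the sham animals. Without vehicle replicate 5, the lowest of its group, the vehicle difference was 1.33 and passed (adjusted p = 0.0375). Without vehicle replicate 1, the highest of its group, it was 0.80 (limma adjusted p = 0.159). With array weights it was 0.82 (adjusted p = 0.114). The background was 0.434% of genes called for EPO and 0.193% for anakinra. The average of the 3 injured groups at 24 h against sham, a comparison added after the group means were seen, gave 1.14 (SE 0.26, 95% interval 0.61 to 1.67, 2.20-fold, limma adjusted p = 0.0137), with 13 of 15 injured animals above every sham animal. It was the only one of the 10 members called there, where 1.23% of all genes were called and 0.682% were called higher. The call was lost without 1 of 3 sham animals: without sham replicate 3, 4 or 5 the adjusted p was 0.0699, 0.0583 or 0.0737. In that comparison 0 of 7 erythroid, 0 of 6 neutrophil and 0 of 9 Kupffer cell markers were called. The summed linear level of the neutrophil markers was 297 to 350 in sham livers. At 24 h it was 394 to 450 in EPO, 312 to 347 in anakinra and 299 to 407 in vehicle livers. Summed Kupffer cell markers were 3895 to 5483 in injured livers at 24 h and 4928 to 6661 in sham livers. The part of these cells in the Nqo1 result was not tested.

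The Nqo1 level was lower in the injured livers taken later. Over the 3 injured groups it averaged 9.30 ± 0.55 at 24 h, 8.78 ± 0.62 at 72 h and 8.54 ± 0.48 at 7 days (SD, n = 15 each), and 8.16 ± 0.34 in sham livers (SD, n = 5). The lowest, median and highest values were 8.43, 9.19 and 10.54 at 24 h, 7.83, 8.67 and 10.04 at 72 h, and 7.23, 8.63 and 9.13 at 7 days. The difference between 7 days and 24 h, also added after the means were seen, was -0.76 (SE 0.19, 95% interval -1.14 to -0.38, 0.59-fold, limma adjusted p = 0.00872), and 7 of 15 animals at 7 days lay below every animal at 24 h. It passed in all 30 fits that left out 1 array and in all 10 other alternatives. At 72 h the difference from 24 h was -0.52 (SE 0.19, limma adjusted p = 0.187). Between those times 0 members were called, against 1.57% of all genes, and 3 had an unadjusted p under 0.05, against 10.8%. Within treatments, the difference between 7 days and 24 h was -0.76 in EPO, -0.51 in anakinra and -1.02 in vehicle livers (SE 0.32 each). At 72 h and at 7 days the injured groups together differed from sham livers by 0.62 (limma adjusted p = 0.364) and 0.38 (adjusted p = 0.520).

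Neither drug moved Nqo1 past the threshold. At 72 h EPO livers measured 8.17, 10.04, 8.80, 8.26 and 9.95, against 8.31, 8.46, 8.59, 8.75 and 9.06 in vehicle livers. Thus 2 EPO animals lay above every vehicle animal and 2 lay below every one, and the SD was 0.90 in EPO and 0.29 in vehicle livers. Averaged over the 3 times, EPO minus vehicle was 0.32 (95% interval -0.06 to 0.70, limma adjusted p = 0.320) and anakinra minus vehicle 0.14 (95% interval -0.24 to 0.52, adjusted p = 0.661). Both intervals include differences of 0.5, so a drug effect of that size was not excluded. The interaction with time gave an adjusted p of 0.934 for EPO and 1.00 for anakinra in limma's F test.

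The genes most like Nqo1 over the 50 arrays were Serpina10, a secreted protease inhibitor of the liver (Pearson r = 0.85), the desmosome gene Dsc2 (0.78) and the macrophage gene Mpeg1 (0.76). After the group means were subtracted, the order was Dsc2 (0.77), Serpina10 (0.77) and Plaat3 (0.74), so the resemblance was also present among animals of 1 group. These correlations over arrays are descriptions.

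**Figure D3:**
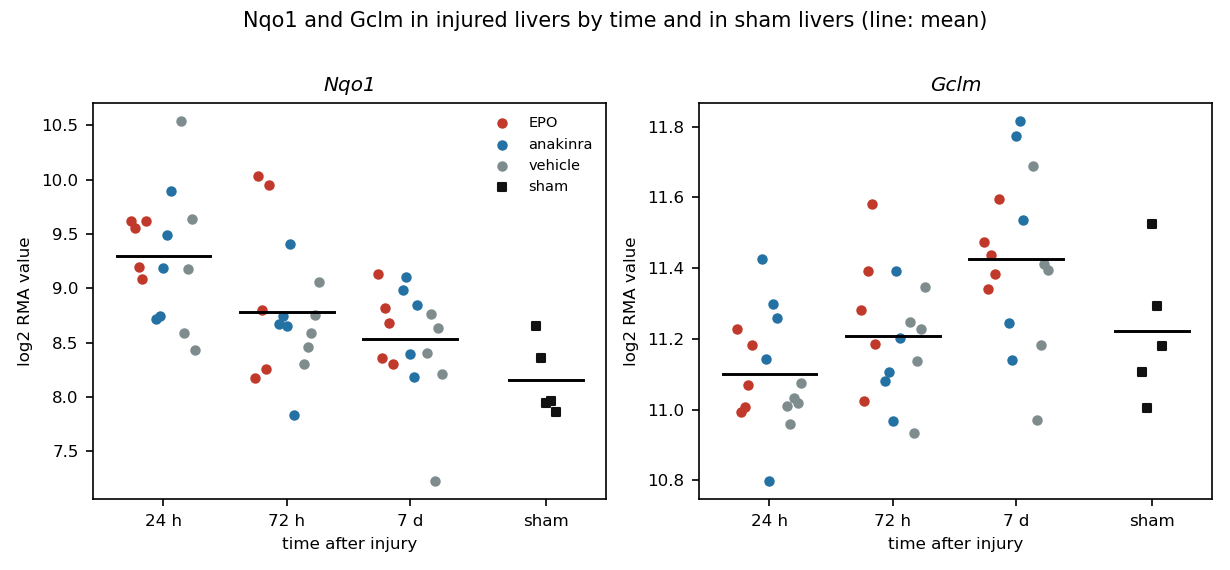
Log2 RMA values (vertical axis) of Nqo1 and Gclm in injured livers by time after injury and in sham livers (horizontal axis), 1 point per animal, coloured by treatment, with lines for the mean. The mean of Nqo1 was 8.54 at 7 days, against 9.30 at 24 h, while that of Gclm was 11.43 at 7 days, against 11.10 at 24 h.

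Gclm and Gclc encode the modifier and catalytic subunits of glutamate-cysteine ligase, the rate-limiting enzyme of glutathione synthesis (chr2:213032135-213052192 and chr8:87510251-87548896). Gclm differed between the times in the direction opposite to Nqo1. It measured 11.01, 10.96, 11.03, 11.02 and 11.08 in vehicle livers at 24 h, against 11.11, 11.004, 11.52, 11.29 and 11.18 in sham livers, with overlap (difference -0.20, SE 0.12, limma adjusted p = 0.376). Over the injured groups it averaged 11.10 ± 0.16 at 24 h, 11.21 ± 0.18 at 72 h and 11.43 ± 0.24 at 7 days (SD, n = 15 each), and 11.22 ± 0.20 in sham livers (SD, n = 5). The lowest, median and highest values were 10.80, 11.07 and 11.43 at 24 h, 10.93, 11.20 and 11.58 at 72 h, and 10.97, 11.41 and 11.82 at 7 days. Group means of Gclm were 11.10, 11.29 and 11.45 in EPO livers, 11.18, 11.15 and 11.503 in anakinra livers and 11.02, 11.18 and 11.33 in vehicle livers, with 11.22 in sham livers (n = 5 each, SD 0.0424 to 0.304). In every treatment the mean was highest at 7 days.

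The difference of Gclm between 7 days and 24 h was 0.33 (SE 0.07, 95% interval 0.19 to 0.47, 1.25-fold, limma adjusted p = 0.00209), and it passed under all 40 alternatives. It was 0.35 in EPO, 0.32 in anakinra and 0.31 in vehicle livers (SE 0.12 each). Nqo1 and Gclm were the 2 members called in that comparison, against 5.02% of all genes (2.58% higher and 2.44% lower). In the same comparison 6 of 7 erythroid markers were called higher, and their summed linear level ranged from 700 to 20949 at 7 days, against 821 to 2513 at 24 h; their part in the results was not tested. Kupffer cell, neutrophil and hepatocyte markers had 0 of 9, 0 of 6 and 0 of 9 calls. At 7 days Gclm in injured livers differed from sham livers by 0.20 (SE 0.10, limma adjusted p = 0.280), which did not pass. The genes most like Gclm over the 50 arrays were Slc6a9 (Pearson r = 0.70), Sptan1 (0.63) and Nt5dc2 (0.61).

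Gclc measured 10.68, 10.53, 10.42, 10.54 and 10.54 in vehicle livers at 24 h, against 10.81, 10.90, 11.23, 10.83 and 10.96 in sham livers. The groups did not overlap, as for 1.67% of all genes in the lower direction, but the difference of -0.40 (SE 0.17, limma adjusted p = 0.258) did not pass. Anakinra livers at 24 h measured 11.13, 10.93, 10.36, 10.90 and 11.21. Their difference from vehicle livers was 0.36 (SE 0.17, limma adjusted p = 0.901), and averaged over times anakinra minus vehicle was 0.24 (95% interval 0.04 to 0.44, adjusted p = 0.185). Group means of Gclc were 10.76, 10.86 and 10.86 in EPO livers, 10.90, 11.14 and 10.99 in anakinra livers and 10.54, 10.86 and 10.90 in vehicle livers, with 10.94 in sham livers (n = 5 each, SD 0.0921 to 0.373). The vehicle mean at 24 h was the lowest of the 10.

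Slc7a11, the cystine importer that supplies the cysteine for glutathione (chr2:136532912-136668560), gave the 1 call among the 210 tests of members in all planned comparisons. EPO livers at 72 h measured 4.63, 4.36, 5.16, 4.66 and 4.28, against 4.34, 3.91, 4.13, 3.99 and 4.26 in sham livers. All but 1 of the EPO animals lay above every sham animal, and the difference was 0.49 (SE 0.14, 95% interval 0.22 to 0.77, 1.41-fold, limma adjusted p = 0.0291), where 3.46% of all genes were called and 2.74% were called higher. In the planned comparisons not yet named, which gave no call among the members, the background was 2.86% for EPO at 7 days against sham and 0.11% and 1.83% for anakinra at 72 h and at 7 days against sham. It was 0.0207%, 1.94% and 0.441% for EPO against anakinra at 24 h, 72 h and 7 days. For the averages over the 3 times it was 2.41% for EPO against vehicle, 0.0551% for anakinra against vehicle and 0.0551% for vehicle against sham.

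The signal of Slc7a11 was dim: only 5.29% of genes had a lower mean, and the table holds no detection call. Group means of Slc7a11 were 4.11, 4.62 and 4.24 in EPO livers, 4.22, 4.18 and 4.32 in anakinra livers and 4.38, 4.26 and 4.39 in vehicle livers, with 4.13 in sham livers (n = 5 each, SD 0.126 to 0.346). The EPO mean at 72 h was the highest of the 10. Without EPO replicate 3 the difference was 0.36 (limma adjusted p = 0.155), and the call was also lost without EPO replicate 4 and without sham replicate 2, 3 or 4. With only these 2 groups in the fit the adjusted p was 0.104. Against vehicle livers at 72 h the difference was 0.35 (SE 0.14, limma adjusted p = 0.146) and against anakinra livers 0.44 (SE 0.14, adjusted p = 0.0895).

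Markers of other cell types moved with this result. In EPO livers at 72 h all 7 erythroid markers measured were called higher than in sham livers, with summed linear levels of 8837 to 24401 in EPO and 875 to 1848 in sham livers. Neutrophil markers were called in 4 of 6 (456 to 1146 in EPO and 297 to 350 in sham livers), Kupffer cell markers in 2 of 9 (6520 to 7942 in EPO and 4928 to 6661 in sham livers) and endothelial markers in 3 of 4 (2611 to 3233 in EPO and 2184 to 2556 in sham livers). Their part in the Slc7a11 result was not tested. Slc7a11 is also a target of the amino acid response factor ATF4, and of 7 other genes of that response 2 were called there, the asparagine synthetase Asns (2.17, SE 0.32) and the amino acid carrier Slc7a5 (1.36, SE 0.20). Atf4 itself (-0.29), Ddit3 (-0.13), Chac1 (-0.03), Trib3 (-0.13) and Slc3a2, the partner chain of the cystine importer (0.10), were not.

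Gsr (chr16:65185574-65228742) encodes glutathione reductase, which regenerates reduced glutathione. It measured 10.06, 10.18, 10.34, 10.10 and 10.29 in anakinra livers at 7 days, against 10.02, 9.93, 9.33, 10.16 and 10.05 in vehicle livers. The groups overlapped, with 3 anakinra animals above every vehicle animal, and the difference was 0.30 (SE 0.13, limma adjusted p = 0.605). The lowest vehicle value came from a narrow array. Group means of Gsr were 9.85, 9.84 and 9.98 in EPO livers, 9.90, 10.01 and 10.19 in anakinra livers and 9.76, 9.88 and 9.90 in vehicle livers, with 9.95 in sham livers (n = 5 each, SD 0.0845 to 0.327). Over all injured groups Gsr differed by 0.19 between 7 days and 24 h (SE 0.08, limma adjusted p = 0.167).

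Txnrd1 (chr7:22717620-22802553) encodes the cytosolic thioredoxin reductase. It measured 8.75, 7.73, 8.81, 8.83 and 8.25 in vehicle livers at 72 h, against 8.77, 8.76, 9.01, 8.71 and 9.07 in sham livers. Its difference of -0.39 (SE 0.18, limma adjusted p = 0.408) came mostly from the 2 lowest vehicle arrays, both narrow, and was -0.07 without the 5 narrow arrays. Group means of Txnrd1 were 8.56, 8.71 and 8.601 in EPO livers, 8.72, 8.72 and 8.76 in anakinra livers and 8.52, 8.47 and 8.65 in vehicle livers, with 8.86 in sham livers (n = 5 each, SD 0.0803 to 0.547). Srxn1 (chr3:161064812-161070372), which repairs overoxidised peroxiredoxins, had the smallest spread of the members and ranged from 6.98 to 7.59 over all arrays. Its largest main difference was 0.17, for anakinra minus vehicle livers at 7 days (SE 0.09, limma adjusted p = 0.704). Group means of Srxn1 were 7.15, 7.23 and 7.24 in EPO livers, 7.24, 7.19 and 7.36 in anakinra livers and 7.19, 7.35 and 7.19 in vehicle livers, with 7.28 in sham livers (n = 5 each, SD 0.023 to 0.225).

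Osgin1 (chr19:64380336-64409165) is an NRF2 target linked to growth inhibition. It measured 9.97, 9.73, 10.13, 8.87 and 9.78 in anakinra livers at 7 days, against 10.33, 10.49, 10.09, 10.003 and 9.99 in vehicle livers. Here 4 of 5 anakinra animals lay below every vehicle animal, and the difference was -0.48 (SE 0.23, limma adjusted p = 0.621). Group means of Osgin1 were 9.92, 9.75 and 10.05 in EPO livers, 9.68, 9.77 and 9.70 in anakinra livers and 9.57, 9.73 and 10.18 in vehicle livers, with 9.89 in sham livers (n = 5 each, SD 0.219 to 0.648).

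Over all 10 groups, limma's F test called 1 member, Nqo1 (adjusted p = 0.0487), where 5.67% of genes were called, and Gclm followed with an adjusted p of 0.0700. The Nqo1 call was lost in 34 of the 50 fits that left out 1 array, with adjusted p between 0.0230 and 0.0904. Between-group differences made up 40.2% of the variance of Nqo1 and 40.6% of that of Gclm, against a median of 22.4% over all genes.

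The other genes of the pathway, taken from 7 lists with 71 measured genes, were not called in the direction of Nqo1. In vehicle against sham livers at 24 h, 0 of the 71 were called higher and 5 lower, where 0.827% of all genes were called and 0.455% were called lower, and the median difference was -0.12 over the lists and 0.04 over all genes. The 5 were the aflatoxin aldehyde reductase Akr7a3 (-1.56, SE 0.31, limma adjusted p = 0.00696), the prostaglandin reductase Ptgr1 (-0.81, SE 0.18), microsomal epoxide hydrolase Ephx1 (-0.70, SE 0.15) and the glutathione transferases Gstm4 (-0.46, SE 0.09) and Gstm1 (-0.35, SE 0.07). In each of them all 5 vehicle animals lay below every sham animal. Without vehicle replicate 3 the count was 3. Members of the Gstm family are close in sequence, and their probes may share signal.

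Over the 3 injured groups at 24 h, 0 of the 71 were called higher and 6 lower than sham: Akr7a3 (-1.28), Ptgr1 (-0.75), Gstm3 (-0.68), the microsomal glutathione transferase Mgst2 (-0.41), Gstm4 (-0.37) and Gstm1 (-0.25). All 15 injured animals lay below every sham animal for Akr7a3, Ptgr1 and Mgst2, as for 0.172% of all genes, and 0.545% of all genes were called lower. The call of Gstm3 held in only 5 of 20 fits that left out 1 array (adjusted p = 0.337 without sham replicate 5) and in 5 of 10 other alternatives.

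Between 24 h and 7 days 2.58% of all genes were called higher and 2.44% lower, and 13 of the 71 were called higher at 7 days and 0 lower. They included Akr7a3 (0.97, SE 0.18), the glutathione transferase Gsta3 (0.72, SE 0.10), the NADPH-forming malic enzyme Me1 (0.53, SE 0.16), Ptgr1 (0.51, SE 0.11), the pentose phosphate enzyme Tkt (0.50, SE 0.08), Ephx1 (0.38, SE 0.09) and glutathione synthetase Gss (0.32, SE 0.08). By function, 7 of 21 glutathione genes, 1 of 10 thioredoxin genes, 2 of 4 NADPH genes and 3 of 14 detoxification genes were called, and 0 of the 11 regulators, of the 7 heme and iron genes and of the 4 other defence genes. The remaining ones were Gstm4 (0.38), Mgst2 (0.31), the peroxiredoxin Prdx2 (0.31), the cystathionine cleaving enzyme Cth (0.21), Gstm1 (0.18) and Gstm2 (0.17). At 72 h 1.15% of all genes were called higher than at 24 h, and 4 of the 71 were among them. These were Prdx2 (0.42), Ptgr1 (0.41), Gstm4 (0.27) and the glutathione peroxidase Gpx1 (0.25). As for Gclm, erythroid markers were called higher at 7 days than at 24 h, and their part in these calls was not tested. Akr7a3 averaged 9.57 ± 0.40 at 24 h, 10.01 ± 0.78 at 72 h and 10.54 ± 0.46 at 7 days (SD, n = 15 each), and 10.85 ± 0.38 in sham livers (SD, n = 5). At 72 h and at 7 days 0 of the 71 genes were called between injured and sham livers, where 0.372% and 2.09% of all genes were called. At an unadjusted p under 0.05 there were 4 higher and 8 lower at 72 h, against 10.2% of all genes, and 7 higher and 9 lower at 7 days, against 16.8%.

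**Figure D4:**
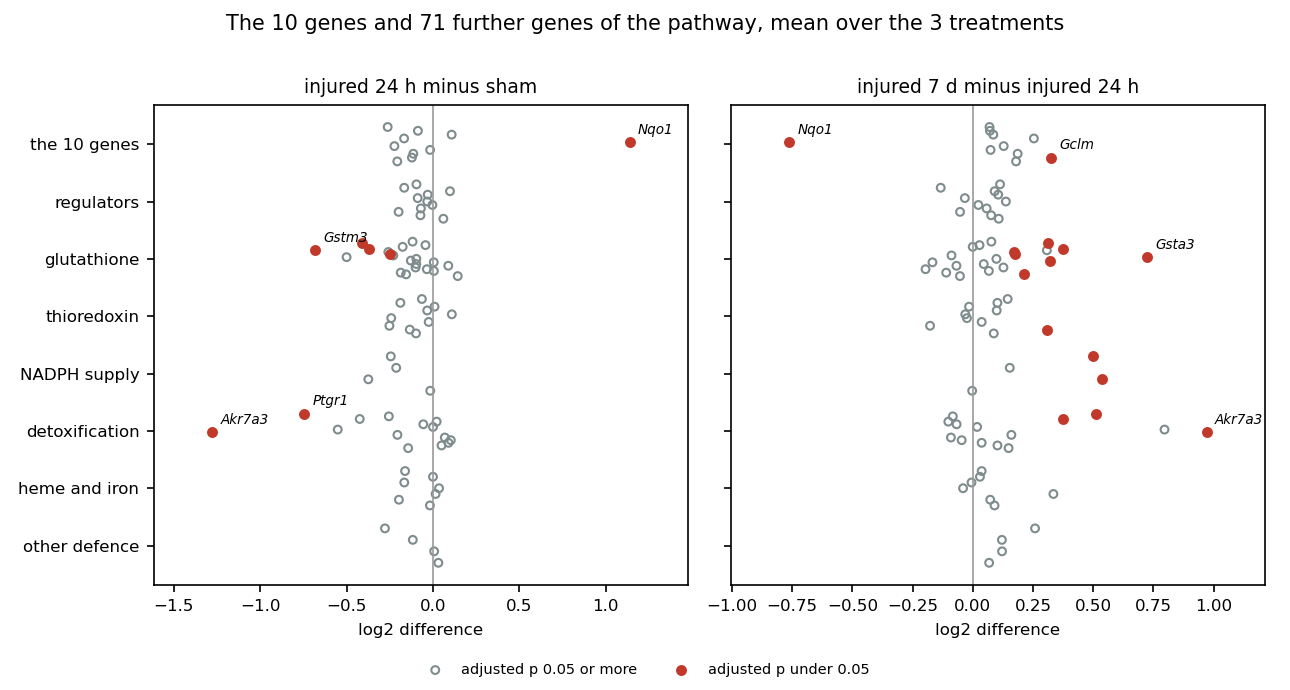
Log2 differences (horizontal axis) of the 10 genes and of 71 further pathway genes by list (vertical axis), averaged over the 3 treatments, for injured livers at 24 h minus sham (left) and injured livers at 7 days minus 24 h (right). Filled points have an adjusted p under 0.05. Nqo1 lies far to the right of the called genes on the left panel and far to their left on the right panel; both panels use the same 24 h arrays.

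With EPO, 3 of the 71 genes were called higher and 0 lower than vehicle at 72 h: the peroxiredoxin Prdx2 (1.06, SE 0.16), Fech, the last enzyme of heme synthesis (0.95, SE 0.18), and the heme oxygenase gene Hmox1 (0.84, SE 0.16). Prdx2 and Fech are abundant in red cell precursors, and the summed erythroid markers were 8837 to 24401 in EPO and 843 to 4494 in vehicle livers. Hmox1 is also abundant in macrophages that clear red cells, and 7 of 9 Kupffer cell markers were called higher, with summed levels of 6520 to 7942 in EPO and 3443 to 6329 in vehicle livers. The part of these cells in the calls was not tested. Of all genes, 2.18% were called higher. At 7 days Gsta3 (0.72, SE 0.18) and Fech (0.80, SE 0.18) were called higher, as were 0.331% of all genes and all 7 erythroid markers, and both calls were lost without EPO replicate 1 or without vehicle replicate 3, 4 or 5. The average over the 3 times called Prdx2 (0.64), Fech (0.59) and Hmox1 (0.40) higher, as it did 1.9% of all genes. With anakinra, 0 of the 71 genes were called at 24 h and at 72 h, where 0 of all genes were called, and 0 at 7 days; 4 higher and 0 lower, 4 higher and 1 lower, and 4 higher and 3 lower had an unadjusted p under 0.05.

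The EPO groups also gave calls in the lists against sham and against anakinra; the comparisons with sham share the sham animals. At 24 h 0 were higher and 3 lower than sham, Akr7a3 (-1.28), Mgst2 (-0.50) and Gstm4 (-0.47). There 0.283% of all genes were called higher and 0.152% lower. At 72 h Fech (1.02), Prdx2 (0.98) and Hmox1 (0.69) were higher than in sham livers, and Akr7a3 (-1.24), the quinone reductase homologue Nqo2 (-0.45), Mgst2 (-0.44) and Gstm2 (-0.36) were lower. Of all genes, 2.74% were called higher and 0.717% lower. At 7 days Fech (0.84), Prdx2 (0.57) and the export pump Abcc3 (0.33) were higher than in sham livers and the peroxiredoxin Prdx5 (-0.40) was lower. Of all genes, 1.23% were called higher and 1.63% lower. Against anakinra at 72 h, EPO livers had higher Prdx2 (1.02), Fech (0.97), Hmox1 (0.79) and Nfe2 (0.51), a relative of Nfe2l2 that acts in blood cell precursors, and lower Ptgr1 (-0.66), Mgst2 (-0.45) and Gstm2 (-0.31). Of all genes, 1.74% were called higher and 0.2% lower. In the 72 h comparison with anakinra and in the 7 day comparison with sham all 7 erythroid markers were called higher. Their part in the calls of the pathway genes was not tested. Many of these calls were near the threshold: that of Nfe2 (limma adjusted p = 0.0474) held in 3 of 10 fits that left out 1 array, and those of Nqo2 and Prdx5 in 2 of 10 each.

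After the group means were subtracted, the median r over the 50 arrays was 0.23 for the 45 pairs of members. It was -0.0018 for all gene pairs, which were not matched to the members by signal level. Of the 45 pairs of members, 38 were positive. The permutation p of r, adjusted by Benjamini-Hochberg over the 45 pairs, was under 0.05 for 8 positive and 0 negative pairs. The share of all gene pairs under that limit was not computed, so this count has no background and is a description. A correlation above 0.5 was found for 4 of the 45 pairs, a share near the 8.28% of all gene pairs. They were Txnrd1 with Gsr (r = 0.79, rho = 0.75, permutation p = 1e-05 for both, the smallest the permutations can give, Benjamini-Hochberg adjusted p over the 45 pairs = 0.000225), Gclc with Gsr (r = 0.71), Keap1 with Gsr (r = 0.71) and Gclc with Txnrd1 (r = 0.70). Without the 2 arrays farthest from the median, Txnrd1 with Gsr gave 0.72, and without the 5 narrow arrays 0.62. The deviations of Txnrd1 followed the standard deviation of the array with r = 0.82, and 3.76% of all genes had a larger r in size. For Gsr (0.65), Keap1 (0.61), Nfe2l2 (0.55) and Gclc (0.52) that share of genes was 26.4%, 32.8%, 42.0% and 45.3%. The values were 0.35 for Srxn1, 0.21 for Nqo1, 0.19 for Osgin1, 0.13 for Gclm and -0.25 for Slc7a11. The part of the array spread in the pair correlations was not tested. Nqo1 with Gclm gave -0.22 (rho = -0.19, permutation p = 0.167, adjusted p = 0.308).

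**Figure D5:**
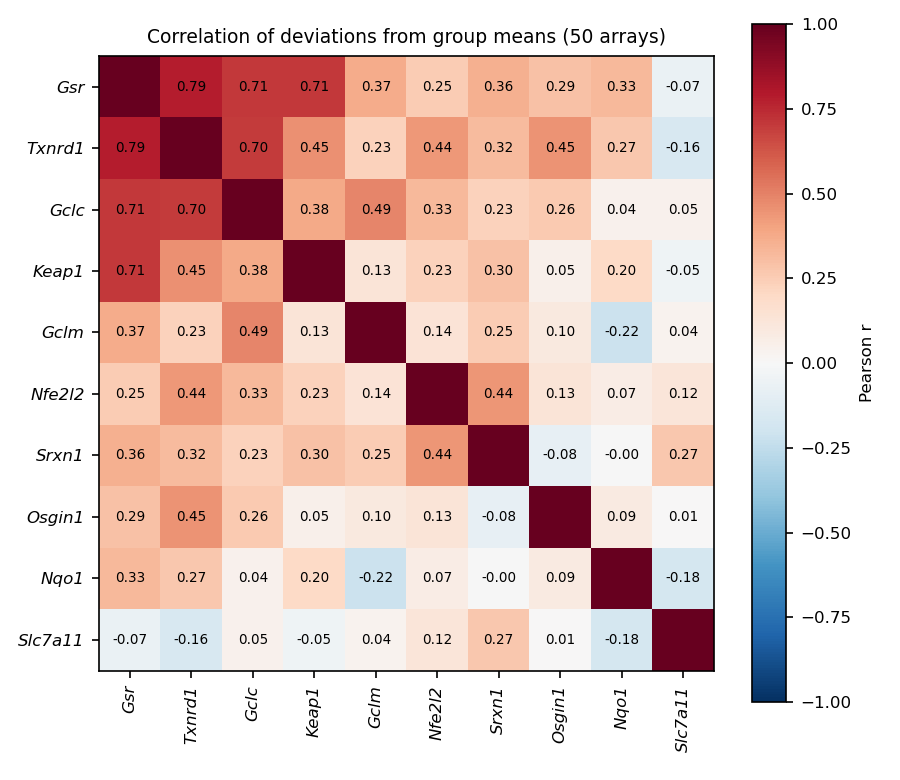
Pearson correlations between the 10 genes over 50 arrays after the group means were subtracted, with genes on both axes and r as colour and number. Gsr, Txnrd1, Gclc and Keap1 form the block of higher values, up to 0.79, and the Nqo1 row stays between -0.22 and values near 0.3.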

How the data were processed

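Rat liver RNA was hybridised to Affymetrix Gene ST arrays, 1 per animal. The deposited log2 values were made by the authors with RMA in the oligo package, per the submitters' processing notes; the sources used here give no versions. RMA corrects background, normalises by quantiles and summarises probes, so levels are relative and compressed for dim genes. The labels name a Cy3 dye, which was not used. Of 29214 probes 15310 had 1 symbol, 323 several and 13581 none, and the probe of highest mean was kept for each of 14506 genes. Precision is limited by the number of arrays.

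Groups came from the labels. limma 3.58.1 in R 4.3.3 fitted 1 mean per group over 50 arrays (40 residual degrees of freedom), for 18 comparisons of 2 groups, 3 averages over times, 4 F tests and 5 comparisons added after the group means were seen. P-values are two-sided, adjusted by Benjamini-Hochberg over all genes within each comparison, and intervals are at 95%. The limma p-values set a difference against the spread between animals within groups, pooled over all groups in the fit. The fit was tested on simulated data. Correlations used 100000 permutations within groups. Alternatives changed the scaling, filter, probes, weights, variance model, samples and block, and left out each array.

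All 10 members are named, each with its largest difference among the main comparisons; other genes come from fixed lists, and those called in the pathway lists are named. The members and lists were chosen with earlier results of these data known. Coordinates and promoter sequences are from RefSeq GRCr8; gene symbols are those of the platform annotation. Scanner values were not analysed here.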

Additional observations from a re-analysis of the deposited data

Results flagged for a closer look

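Among the 100 sets of 5 animals (10 genes in 10 groups), 5 held an animal far from the other 4, and chance flags about 1 in 20 such sets. Nfe2l2 measured 10.66 in vehicle replicate 2 at 72 h, against 11.28 to 11.45 in the other 4 vehicle livers. Txnrd1 measured 8.02 in vehicle replicate 3 at 24 h (the others 8.54 to 8.73) and 7.68 in vehicle replicate 3 at 7 days (the others 8.85 to 8.95). Gsr measured 9.33 in the same vehicle liver at 7 days (the others 9.93 to 10.16). These 4 values came from arrays among the 5 with the lowest standard deviation over all probes, and were the lowest of their group. Keap1 measured 8.55 in anakinra replicate 1 at 24 h, against 8.26 to 8.33 in the other 4 anakinra livers, on an array that was not among those 5.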

How the results depend on the processing

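Over the 30 counts of members called, 288 of 299 alternatives and 461 of 505 fits without 1 array stayed within 1.5 times the reported count. Most of the 30 counts were 0, so this agreement is mainly of counts that stayed at 0 and says little about the calls. With array weights the count of members was 1 for EPO at 24 h against sham, 2 for EPO at 72 h against sham, 1 for anakinra at 24 h against sham and 3 for the F test over the 10 groups, and the pathway genes called were 8 for vehicle at 24 h against sham, 12 for EPO at 72 h against sham, 1 for EPO at 7 days against vehicle, 12 for injured at 24 h against sham and 23 for injured at 7 days against 24 h. With only the groups compared in the fit, 1 member (Nqo1) was called for EPO at 24 h against sham and 0 for EPO at 72 h against sham, and 3 pathway genes for vehicle at 24 h against sham, 1 for EPO at 72 h against vehicle, 0 for EPO at 7 days against vehicle and 4 for EPO at 72 h against sham. Without the 5 narrow arrays the counts were 1 member for EPO at 24 h against sham, 0 in the F test, and 1 pathway gene for EPO at 7 days against vehicle; the difference of Keap1 for anakinra minus vehicle at 72 h was -0.0072. Median centring gave 0 members in the F test, 0 pathway genes for EPO at 7 days against vehicle and 8 for injured at 7 days against 24 h. The trend and robust options gave 0 members in the F test and 1 pathway gene for EPO at 7 days against vehicle, quantile normalization gave 1 there, and leaving out the dimmest genes removed Slc7a11, so that 0 members were called for EPO at 72 h against sham. The cause was not tested, except that fewer arrays or genes entered where so named.

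Leaving out 1 array gave 0 to 1 members for vehicle at 24 h against sham (1 without vehicle replicate 5), 0 to 2 for EPO at 72 h against sham, 0 to 1 for EPO against anakinra at 72 h, 0 to 1 for injured at 24 h against sham, 2 to 3 for injured at 7 days against 24 h and 0 to 2 in the F test. The pathway genes called were 3 to 7 for vehicle at 24 h against sham, 3 to 4 for EPO at 72 h against vehicle, 0 to 2 for EPO at 7 days against vehicle, 3 to 9 for EPO at 72 h against sham, 4 to 7 for injured at 24 h against sham and 10 to 15 for injured at 7 days against 24 h. Of 2007 single-gene alternatives, 1 reversed, 234 lost the call and 8 gained it. The count of all genes called was 395 for EPO at 72 h against vehicle (53 with only those groups in the fit), 120 for vehicle at 24 h against sham (267 with array weights, 79 without the narrow arrays, 48 with only those groups) and 4 for EPO at 24 h against vehicle (23 with array weights, 2 without the narrow arrays, 0 with only those groups). For anakinra at 7 days against vehicle it was 2, and 20 with array weights. That count was 0 with the replicate block, with median centring and with quantile normalization. It was also 0 without the narrow arrays and with only those groups, and several fits without 1 array lowered it.

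Replicate numbers are shared across groups. The median r between deviations was -0.007 for same-numbered arrays (225 pairs, 78 over 0.1) and -0.011 for other-numbered arrays. Of the 50 arrays, 15 correlated best with an array of their own number. No chance value was computed for these counts, so a shared deviation was not excluded. With the replicate number as a block, every count of members was as reported. In the F test over the 10 groups, however, Nqo1 lost its call (adjusted p = 0.0640) and another member was called in its place. The pathway genes called for EPO at 7 days against vehicle were 1, Gsta3 losing its call (adjusted p = 0.0639), and calls were also lost for Gstm3 in injured livers at 24 h against sham (adjusted p = 0.0518) and for Nfe2 and Gstm2 in EPO against anakinra at 72 h (adjusted p = 0.0563 each).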
